A study of Homo sapiens with 9 samples.

Results

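The transcriptome of SMS-KCNR cells given simvastatin was compared with that of the same cells given the solvent. SMS-KCNR is an established human neuroblastoma line, and neuroblastoma is a childhood tumour of the sympathetic nerve lineage. The comparison used 6 of the 9 arrays of the study: 3 from cells treated with DMSO alone and 3 from cells treated with 5 µM simvastatin. Treatment lasted 30 hours in both groups, and the cells were grown in the same serum-containing medium. The other 3 arrays, from cells given 5 µM simvastatin with 2 mM mevalonate, entered the model only as a group of their own. The labels call the samples independent without naming separate cultures or days, so the p-values measure the spread between these samples, which may be partly technical. All genes with a symbol were taken, each through the probeset with the highest mean over the 9 arrays, which gave 14884 genes from 53617 probesets. Of these, 11916 code for proteins.

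Statins block HMG-CoA reductase, the enzyme that makes mevalonate. Mevalonate is the source of cholesterol and also of the farnesyl and geranylgeranyl groups that anchor Rab, Ras and other small GTPases to membranes, and of dolichol and coenzyme Q. Actin filaments meet the matrix at focal adhesions, and serum response factor controls many genes of the cytoskeleton. Neuroblastoma cells keep much of the noradrenergic programme of sympathetic neurons, including catecholamine synthesis and dense-core granules.

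Between the groups, 1988 genes (13.4% of 14884) changed at an adjusted p under 0.05, of which 890 rose (5.98%) and 1098 fell (7.38%). With the p-values adjusted over all probesets in place of genes with a symbol, 1177 changed, 506 up and 671 down. Levels and differences are on the log2 scale of the deposited values, differences are simvastatin minus DMSO with their standard error (3 arrays a group), and adjusted p-values are Benjamini-Hochberg values over all 14884 genes from limma. "Rose" and "fell" are used of genes that passed this test. Most changes were small: the median size among the changed genes was 0.34, and 41 genes moved at least 2-fold, 18 up and 23 down. The 3 simvastatin values lay apart from the 3 DMSO values in 4252 genes (28.6%), and in 1985 of the 1988 changed genes. A lack of overlap between groups therefore adds little to a call. The median change over all genes was 0.0052, on the values as deposited. Quantile normalization gave 1048 rises and 1001 falls. Known sterol and fatty acid synthesis, ATF4-target and mitotic genes made up 185 of the measured genes and 132 of the changed ones. Apart from the promoters, the description draws on the other 1856, of which 837 rose and 1019 fell, through families of at least 5 measured members. Of these 1856, 1005 lie in no family and are mostly not described. The family counts keep any listed gene that a family holds. Every gene named as rising or falling kept its call when any 1 of the 9 arrays was left out, unless the arrays or the alternative settings under which the call was lost are given beside it. For a family, the percentages in brackets are the shares of its measured members that rose and fell, to be set beside 5.98% and 7.38% of all genes. They are followed by any count that moved by over 1.5 times with 1 array left out or, for counts of 4 or more, under another setting.

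The share of genes called depended on level. It was 1.85% in the 2976 dimmest genes by mean level and 29% in the 2977 brightest, where 11.5% rose and 17.5% fell, so the counts of dim and bright families are not on equal terms. Arrays of one group correlated at 0.994 to 0.996 over all genes tested, and arrays of different groups at 0.990 to 0.992. Of 16 noradrenergic markers, 12 were measured; all 12 lay above the array median of 5.19 in the DMSO arrays, and 8 of them fell. The 3 measured endothelial markers lay below that median. Of 5 measured markers of Schwann cells and glia, 4 lay above it, with DMSO means between 4.63 and 5.71 over the list and a median level of 5.30 with DMSO and 5.33 with simvastatin. Blood and epithelial markers were mostly not called: 1 of 3 blood markers rose, CD68 (0.48), and 1 of 4 epithelial markers, EPCAM (0.41, not called without DMSO array 1 or 3 or simvastatin array 1 or 2 or adjusted over all probesets). Mesenchymal markers did not move one way, with 1 of 9 rising and 2 falling. Above the array median with DMSO lay 8 of 9 mesenchymal, 2 of 3 blood and 3 of 4 epithelial markers. A level above that median therefore does not by itself set the noradrenergic list apart. RNA came from bulk cultures, so fewer cells of a kind and less RNA per cell cannot be told apart.

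**Figure D1:**
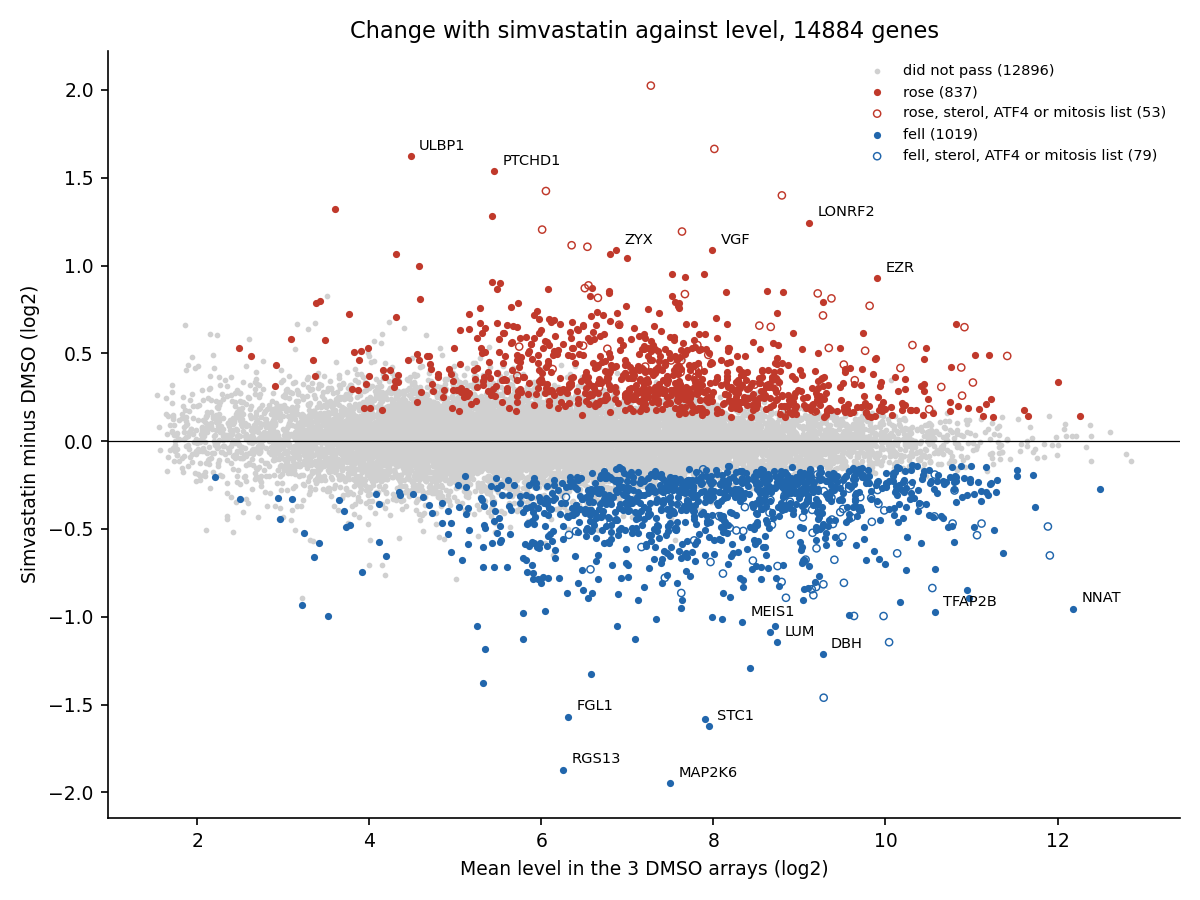
Each point is 1 of 14884 genes, placed by its mean level in the 3 DMSO arrays and by its change with simvastatin, both log2. Red points rose, blue points fell and grey points did not pass; open circles are genes of the sterol, ATF4 and mitosis lists, and the calls are denser to the right, among well expressed genes.

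The largest rise outside those lists, of all genes tested, was in ULBP1, a surface ligand that activates natural killer cells through the receptor NKG2D. ULBP1 read 4.97, 4.15 and 4.33 in the DMSO arrays and 6.08, 6.12 and 6.12 in the simvastatin arrays, and the groups did not overlap although the DMSO arrays were spread. The change was 1.62 ± 0.24, or 3.08-fold (adjusted p = 0.00242, limma). PTCHD1, a membrane protein of the Patched type, read 5.56, 5.38 and 5.41 in the DMSO arrays and 7.09, 6.84 and 7.04 in the simvastatin arrays. Its rise was 1.54 ± 0.13 (adjusted p = 0.000147, limma), with every simvastatin array more than 1 log2 unit above every DMSO array. LONRF2 and LONRF1, paralogous RING-finger proteins with a LON-protease substrate domain, rose together by 1.24 and 0.85. LONRF2 read 9.14, 9.07 and 9.12 in the DMSO arrays and 10.43, 10.28 and 10.36 in the simvastatin arrays, with tight groups. VGF, the precursor of secreted peptides stored in neuronal granules, read 8.01, 7.94 and 8.01 in the DMSO arrays and 9.10, 8.99 and 9.14 in the simvastatin arrays. That is a rise of 1.09 ± 0.063, or 2.13-fold (adjusted p = 2.45e-05, limma). NAMPT, the rate-limiting enzyme of NAD salvage, read 9.32, 9.30 and 9.21 in the DMSO arrays and 10.04, 10.08 and 10.09 in the simvastatin arrays, a rise of 0.79 ± 0.059 (adjusted p = 8.45e-05, limma). Others among the 25 largest rises, all of coding genes, were EPPK1 (1.0), a plakin that binds intermediate filaments, BEND6 (0.90), STK40 (0.86), the RING-finger protein TRIM67 (0.85), SYNJ2 (0.83), a phosphoinositide phosphatase, and FMN1 (0.83), an actin-nucleating formin.

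The largest fall was in MAP2K6, a kinase that activates p38 MAP kinases. MAP2K6 read 7.41, 7.48 and 7.61 in the DMSO arrays and 5.52, 5.71 and 5.43 in the simvastatin arrays, and all DMSO arrays lay far above all simvastatin arrays. It fell by 1.95 on the log2 scale, a 3.85-fold lower level (SE 0.10, adjusted p = 1.72e-05, limma). RGS13, which shortens G-protein signals, read 6.09, 6.28 and 6.41 in the DMSO arrays and 4.41, 4.45 and 4.31 in the simvastatin arrays, a change of -1.87 ± 0.08 (adjusted p = 9.05e-06, limma). STC1, a secreted glycoprotein hormone, read 7.94, 7.97 and 7.94 in the DMSO arrays and 6.21, 6.43 and 6.35 in the simvastatin arrays, a change of -1.62 ± 0.057 (adjusted p = 4.77e-06, limma). In both genes the groups were clearly apart. A surface and a secreted protein followed: TM4SF4 (-1.58), a membrane protein of the tetraspanin-like L6 group, and FGL1 (-1.57), a secreted fibrinogen-like protein. A pair of genes with a high signal also fell: the transcription factor TFAP2B, which acts in the sympathetic lineage, and NNAT, an imprinted gene for a small endoplasmic reticulum protein. TFAP2B read 10.56, 10.54 and 10.61 in the DMSO arrays and 9.58, 9.62 and 9.59 in the simvastatin arrays, and NNAT read 12.19, 12.08 and 12.27 in the DMSO arrays and 11.18, 11.25 and 11.24 in the simvastatin arrays. Their changes were -0.97 and -0.95, with no overlap between groups. The falls also took in FGFBP2 (-1.13), PRR16 (-1.09), LIX1 (-0.99) and NYAP2 (-0.97).

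**Figure D2:**
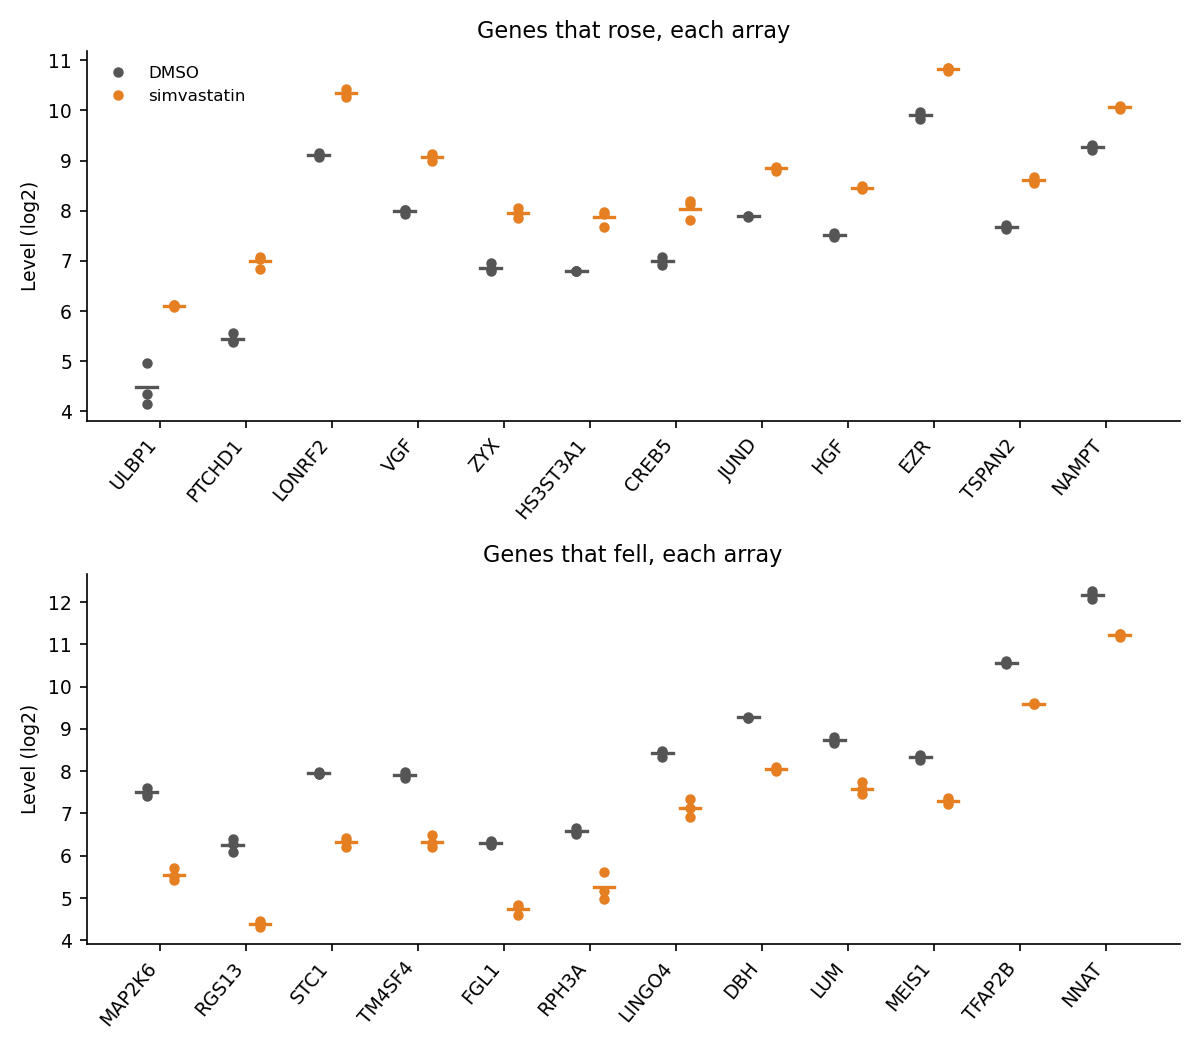
Points are the log2 level of each gene in each of the 3 DMSO arrays (grey) and 3 simvastatin arrays (orange), and short lines are group means. The groups do not overlap in any of the 24 genes, which was a condition of their choice, and ULBP1 in the DMSO arrays is the most spread.

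Ras-like GTPases are small GTPases, many of them prenylated, that pass signals from receptors. Of these 3 of 18 measured rose and 0 fell (16.7% and 0%; 0 lower at an unadjusted p under 0.05 in limma): RRAS (0.68), GEM (0.36, not called without DMSO array 1 or 2 or simvastatin array 2 or 3 or adjusted over all probesets) and RALA (0.30). RRAS, which promotes integrin activation, read 6.17, 6.13 and 6.04 in the DMSO arrays and 6.74, 6.85 and 6.77 in the simvastatin arrays, a rise of 0.68 ± 0.063 (adjusted p = 0.000237, limma), without overlap. HRAS stood at -0.09 and RHEB at -0.02, neither past the test. No prenylation enzyme or chaperone passed in limma, 0 of 11 (0 higher and 0 lower at an unadjusted p under 0.05). ICMT and ZMPSTE24, which finish the processing of prenylated proteins, stood at -0.05 and -0.07. DHDDS and NUS1, which extend the dolichol chain, stood at 0.09 and 0.01. The catalytic subunits of the farnesyl and geranylgeranyl transferases were unnamed here, as were the G protein gamma subunits.

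Genes of focal adhesions, the sites where actin meets the matrix, gave mostly rises. In that family 10 of 38 measured rose and 2 fell (26.3% and 5.26%; 1 fall without DMSO array 2), with a median of 0.04. ZYX, zyxin, read 6.96, 6.80 and 6.83 in the DMSO arrays and 8.06, 7.85 and 7.95 in the simvastatin arrays, a rise of 1.09 ± 0.076 or 2.12-fold (adjusted p = 6.01e-05, limma). Vinculin, VCL, which links talin to actin, read 8.91, 8.95 and 8.92 in the DMSO arrays and 9.55, 9.50 and 9.58 in the simvastatin arrays, a rise of 0.61 ± 0.057 (adjusted p = 0.00025, limma). The groups were apart in both. LIM-domain partners rose alongside: FHL3 (0.75), PDLIM3 (0.72), FHL2 (0.58), PDLIM7 (0.53) and TGFB1I1 (0.52, not called without DMSO array 2 or 3 or simvastatin array 1 or 3, with the 6 arrays alone or adjusted over all probesets). CSRP2 (-0.43, not called without DMSO array 2 or with the 6 arrays alone) and TLN2 (-0.32) fell.

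Among actins and actin-binding proteins 7 of 43 measured rose and 4 fell (16.3% and 9.3%; 4 rises without DMSO array 3; 3 rises adjusted over all probesets). Ezrin, EZR, which ties actin to the plasma membrane, read 9.97, 9.83 and 9.90 in the DMSO arrays and 10.85, 10.86 and 10.79 in the simvastatin arrays, a rise of 0.93 ± 0.049 (adjusted p = 1.73e-05, limma). Its relative RDX (0.21, not called adjusted over all probesets) rose too. TMOD1 (0.49), TPM4 (0.30) and CNN2 (0.34, not called without any 1 DMSO array or simvastatin array 2 or 3, with probesets averaged, with the replicate block or adjusted over all probesets) rose, and the bundling proteins PLS3 (-0.45) and LCP1 (-0.44) fell. Of the intermediate filament genes, which include the keratins, 2 of 54 measured rose and 0 fell (3.7% and 0%; 1 lower at an unadjusted p under 0.05 in limma; 1 fall without DMSO array 2 or 3): NES (0.52), nestin, and LMNA (0.39), lamin A/C, whose precursor prelamin A is farnesylated.

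Microtubule-associated proteins split evenly, with 8 of 53 rising and 8 falling (15.1% and 15.1%). STMN4 (0.74), DCLK1 (0.66), MAPT (0.52), which encodes tau, and MAP4 (0.40) rose. FIGN (-0.89), a microtubule-severing enzyme, DCX (-0.67), doublecortin, STMN1 (-0.32) and MAP2 (-0.29) fell. DCX and DCLK1, related proteins of migrating neurons, both passed the test, in opposite directions: DCX read 7.37, 7.39 and 7.45 with DMSO and 6.76, 6.68 and 6.76 with simvastatin, and DCLK1 read 8.19, 8.10 and 8.20 with DMSO and 8.89, 8.79 and 8.81 with simvastatin.

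Immediate early and related leucine-zipper factors held a high share of rises. Of 23 measured, 12 rose and 1 fell (52.2% and 4.35%), and the family median was 0.30, against 0.0052 for all genes. CREB5, which binds cyclic AMP response elements with JUN, read 6.93, 7.07 and 7.0 in the DMSO arrays and 8.19, 8.13 and 7.82 in the simvastatin arrays, a rise of 1.05 ± 0.098 (adjusted p = 0.000258, limma). JUND, an AP-1 subunit, read 7.90, 7.90 and 7.88 in the DMSO arrays and 8.80, 8.85 and 8.88 in the simvastatin arrays, a rise of 0.95 ± 0.053 (adjusted p = 2.34e-05, limma). All arrays of one group were above all arrays of the other in both. Further rises were IER3 (0.79), JUN (0.66), SRF (0.55), which is the serum response factor, ATF6 (0.53), IER2 (0.42), EGR3 (0.39), FOSL2 (0.33) and JUNB (0.35, not called without DMSO array 1). CREB1 (-0.27) was the one that fell. KLF and SP factors, zinc-finger proteins that bind GC-rich DNA, were called mostly upward: 6 of 26 measured rose and 2 fell (23.1% and 7.69%; 1 fall without DMSO array 2 or 3). KLF11 (0.67), KLF9 (0.48, not called without DMSO array 3 or with the 6 arrays alone), KLF16 (0.41) and KLF6 (0.40) rose, as did KLF2 (0.53, not called without DMSO array 1 or 3 or simvastatin array 2 or 3, with the 6 arrays alone or adjusted over all probesets).

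Promoters of the genes that rose were read for the sequences that such factors bind. RefSeq (GRCh38.p14) gave a promoter, from 250 bases before to 50 after the start site, for 9707 of the 11916 coding genes. Where several were listed, the first was used. Of 14 motifs counted on both strands, 4 belong to factor families described above, and they were picked after the calls were known. They are the CArG box of serum response factor (CC, then 6 bases of A or T, then GG), the cyclic AMP response element TGACGTCA, the AP-1 site TGANTCA and the GC box GGGCGG; none of the 4 contains another.

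A cyclic AMP response element stood in 42 of 675 promoters of genes that rose (6.22%), in 26 of 824 that fell (3.16%) and in 196 of 8208 of the rest (2.39%), against 2.72% of all 9707. A CArG box stood in 15 of those that rose (2.22%), 9 that fell (1.09%) and 98 of the rest (1.19%), against 1.26% of all. For the AP-1 site the shares were lower in both: 4.44% of rising, 3.4% of falling and 5.77% of other promoters held it, against 5.48% of all. The GC box was in 77%, 68% and 61.3%, against 62.9% of all. Promoters of rising genes were also richer in G and C, with a median of 68.3% against 62.8% for falling genes and 63.3% for the rest, and the part of base composition in these shares was not tested.

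The other 10 motifs also had unequal shares, so the 4 above do not stand alone. They were the CCAAT box, the cell-cycle homology element TTTGAA, the E2F motif TTTCNCGC, the ETS motif CCGGAAGT, the ATF4-type composite motif TGATGNAA, the unfolded protein response element TGACGTGG and, by name, the ERSE, CLEAR, NRF1 and YY1 motifs; the ERSE motif contains a CCAAT box. The element TTTGAA stood in 7.11% of rising and 18% of falling promoters, against 11.4% of all. The CCAAT box stood in 35.1% and 46.5%, against 36.2% of all. Both shares were higher in the falling than in the rising genes. TGATGNAA stood in 2.96% of rising and 1.46% of falling promoters, against 2.12% of all, and TGACGTGG in 1.63% and 0.607%, against 0.907%. TTTCNCGC stood in 4.89% and 5.58%, against 4.11%, and CCGGAAGT in 5.78% and 6.19%, against 6.89%. ERSE, CLEAR, NRF1 and YY1 were rare, each in 2.31% or less of rising and falling promoters, against 0.103%, 0.587%, 1.99% and 1.56% of all. The promoter counts take in genes of the sterol, ATF4 and mitosis lists. Without them, in a count added after the data were seen, 9550 promoters were left: the cyclic AMP response element stood in 6.35% of rising and 2.91% of falling promoters and the CArG box in 2.22% and 1.06%. TTTGAA then stood in 7.3% and 13.7%, the CCAAT box in 32.9% and 44.1%, and TGATGNAA in 1.75% and 1.19%, against 2.01% of all, so that its share in rising promoters was no longer above that of all. A match is a description of the letters and not a binding site.

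The promoter stretches below are shown because they belong to cytoskeletal genes and to leading rises of other families, with 20 bases on either side of the motif in the direction of the gene and the motif in capitals.
SRF, chr6:43171219-43171288, plus strand: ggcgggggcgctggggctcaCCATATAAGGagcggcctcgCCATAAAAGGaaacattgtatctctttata
FHL2, chr2:105438585-105438634, minus strand: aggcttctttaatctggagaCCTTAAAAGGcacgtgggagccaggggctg
TPM4, chr19:16067345-16067394, plus strand: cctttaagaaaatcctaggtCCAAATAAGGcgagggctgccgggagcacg
CNN2, chr19:1026499-1026548, plus strand: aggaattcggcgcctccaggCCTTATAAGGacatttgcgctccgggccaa
VGF, chr7:101165621-101165668, minus strand: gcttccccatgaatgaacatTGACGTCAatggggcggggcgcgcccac
JUND, chr19:18281795-18281842, minus strand: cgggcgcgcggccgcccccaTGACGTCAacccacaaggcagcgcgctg
HS3ST3A1, chr17:13601951-13601998, minus strand: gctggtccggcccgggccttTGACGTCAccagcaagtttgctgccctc
MCAM, chr11:119317135-119317182, minus strand: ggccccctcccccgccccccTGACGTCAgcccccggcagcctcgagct
PDLIM3, chr4:185535528-185535575, minus strand: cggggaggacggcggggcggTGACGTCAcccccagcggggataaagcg
The first 4 genes hold CArG boxes, with 2 boxes in SRF, and the last 5 hold the cyclic AMP response element. The rises of their genes ran from 0.30 for TPM4 to 1.09 for VGF.

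Feedback inhibitors of MAP kinase signalling, the dual-specificity phosphatases and Sprouty proteins, were called in both directions: 7 of 26 measured rose and 3 fell (26.9% and 11.5%; 4 rises without simvastatin array 1, with the 6 arrays alone or adjusted over all probesets; 1 fall without any 1 DMSO array, simvastatin array 2 or 3 or simvastatin plus mevalonate array 2 or 3). DUSP5, a nuclear phosphatase of ERK, read 5.46, 5.38 and 5.45 in the DMSO arrays and 6.29, 6.42 and 6.30 in the simvastatin arrays, a rise of 0.90 ± 0.071 (adjusted p = 0.000103, limma). DUSP4 (0.58), DUSP16 (0.46) and SPRY4 (0.35) rose too, DUSP19 (-0.85) fell, and DUSP8 (0.53, not called without DMSO array 2 or 3 or simvastatin array 1, with the 6 arrays alone or adjusted over all probesets) and DUSP7 (0.50, not called without simvastatin array 1 or 2, with the 6 arrays alone or adjusted over all probesets) rose with less stable calls. Of the kinases themselves, KSR1 and MAP3K20 rose by 0.57 and 0.45, beside the fall of MAP2K6. In MAP kinase cascades 4 of 44 measured rose and 1 fell, 9.09% and 2.27%. Fits with 1 array left out gave 2 to 4 rises and 1 to 2 falls. IRS2 (0.50), an adaptor of the insulin receptor, INSR (0.39), the receptor itself, and DEPTOR (0.40), an inhibitor of mTOR, rose. Of PI3K, AKT and mTOR components 3 of 23 measured rose and 1 fell, 13% and 4.35%. Fits with 1 array left out gave 3 to 4 rises and 1 to 2 falls.

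**Figure D3:**
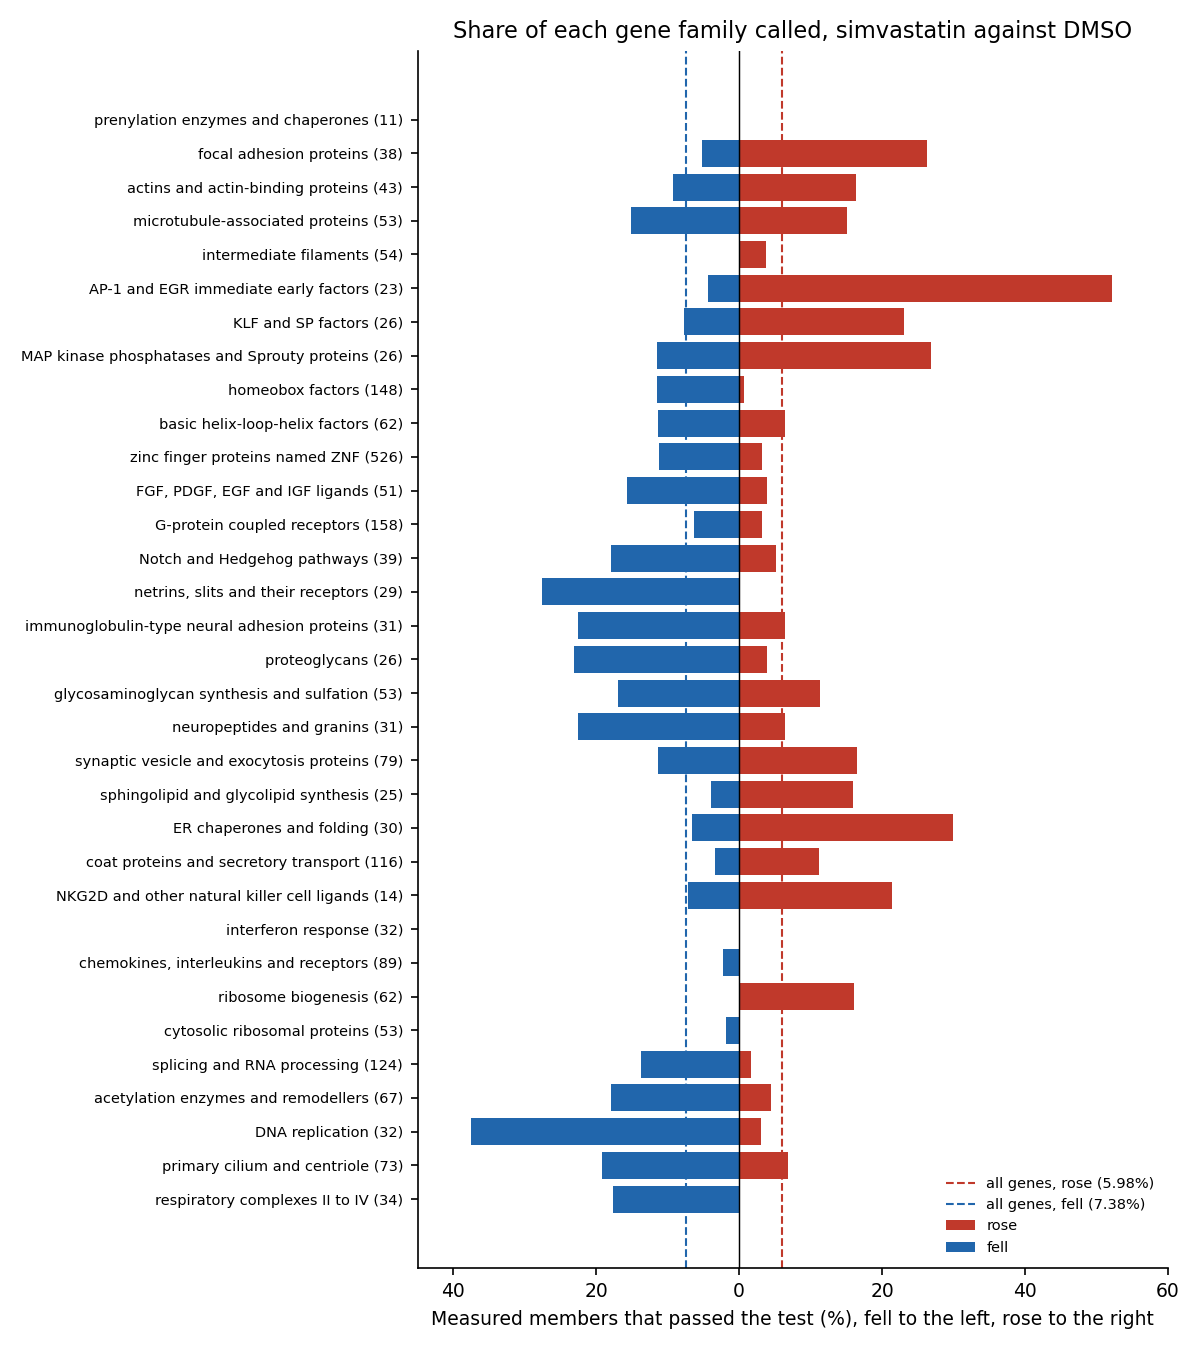
Bars give the percentage of measured members (number in brackets) that rose, to the right in red, or fell, to the left in blue, in 33 families; dashed lines mark 5.98% and 7.38% of all genes. The longest bar to the right is that of the AP-1 and EGR factors (12 of 23) and the longest to the left is that of DNA replication (12 of 32).

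Homeobox factors, which set positional and neuronal identity, were called almost only downward: 1 of 148 measured rose and 17 fell (0.676% and 11.5%; 0 rises without DMSO array 3 or simvastatin array 3; 2 rises without simvastatin array 2 or simvastatin plus mevalonate array 3; 11 falls adjusted over all probesets), the rise being that of MEOX1 (0.27, not called without DMSO array 2 or 3 or simvastatin array 2 or 3, with the 6 arrays alone, with the replicate block or adjusted over all probesets). The family median was -0.0055. MEIS1, a cofactor of HOX proteins, read 8.26, 8.38 and 8.36 in the DMSO arrays and 7.37, 7.32 and 7.22 in the simvastatin arrays, a change of -1.03 ± 0.054 (adjusted p = 1.72e-05, limma). SHOX2 read 8.01, 7.92 and 8.02 in the DMSO arrays and 7.09, 6.96 and 6.90 in the simvastatin arrays, a change of -1.0 ± 0.057 (adjusted p = 2.4e-05, limma). ISL1, a LIM-homeodomain factor of sympathetic neurons, read 10.22, 10.26 and 10.22 in the DMSO arrays and 9.55, 9.45 and 9.51 in the simvastatin arrays, a change of -0.74 ± 0.043 (adjusted p = 2.49e-05, limma). No array of one group reached into the other in any of these genes. SATB1 (-0.77), ZFHX4 (-0.72), SIX3 (-0.59), CUX2 (-0.52), TSHZ2 (-0.45), MEIS2 (-0.42) and ZFHX3 (-0.41) fell as well.

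Of basic helix-loop-helix factors 4 of 62 measured rose and 7 fell (6.45% and 11.3%; 7 rises with trend and robust settings), rises close to and falls somewhat above the shares of all genes. Among the falls were AHR (-0.86), the aryl hydrocarbon receptor, EPAS1 (-0.60, not called with the 6 arrays alone), which encodes HIF-2α, and BMAL1 (-0.60) of the circadian clock. The lineage factors TWIST1 (-0.49), HAND1 (-0.43) and TCF4 (-0.41) fell too. NPAS4 (0.64), an activity-induced neuronal factor, and MXI1 (0.31, not called with probesets averaged) rose. The nuclear receptors ESRRG (-0.84) and RORB (-0.49) fell and PPARD (0.53) rose, 3 changes among 18 measured (5.56% and 11.1%). Of ETS factors 4 of 22 measured rose and 2 fell, 18.2% and 9.09%, and ETV1 (-0.78) was among the falls. Fits with 1 array left out gave 2 to 4 rises and 1 to 2 falls. Of 526 zinc-finger proteins named ZNF or ZBTB, 17 rose and 59 fell (3.23% and 11.2%), with a median of -0.05. The rises numbered 8 to 11 without DMSO array 1, 2 or 3 or simvastatin array 1 or 2, and 9 with the replicate block. The falls numbered 30 without DMSO array 3 and 38 without simvastatin array 3. With the 6 arrays alone 7 rose and 39 fell, and adjusted over all probesets 4 rose and 24 fell. The largest were falls of ZNF462 (-0.78), ZNF618 (-0.59) and ZBTB38 (-0.56).

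Secreted growth factors and their binding proteins were called mostly downward: 2 of 51 measured rose and 8 fell (3.92% and 15.7%; 1 rise without DMSO array 1 or simvastatin array 1 or 2), with a median of -0.05. ANGPT2, which binds the endothelial receptor TIE2, read 7.16, 7.04 and 7.08 in the DMSO arrays and 6.17, 5.89 and 5.85 in the simvastatin arrays, a change of -1.13 ± 0.091 (adjusted p = 0.000118, limma). KITLG, stem cell factor, read 6.28, 6.15 and 6.45 in the DMSO arrays and 5.58, 5.56 and 5.15 in the simvastatin arrays, a change of -0.86 ± 0.12 (adjusted p = 0.00239, limma). In the other direction HGF, the ligand of MET, read 7.47, 7.56 and 7.50 in the DMSO arrays and 8.46, 8.50 and 8.43 in the simvastatin arrays, a rise of 0.95 ± 0.063 (adjusted p = 4.28e-05, limma). The groups were apart in all 3 genes. IGFBP5 (-0.83) and IGFBP4 (-0.79), which bind insulin-like growth factors, FGF10 (-0.75) and ANGPT1 (-0.40) fell, as did FGF14 (-0.68), which despite its name acts inside neurons on sodium channels.

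Receptors and their pathways included several large single changes. The receptor tyrosine kinases ALK (-0.82), in which neuroblastomas can carry activating changes, and EGFR (-0.40) fell. In that family 2 of 34 measured rose and 5 fell (5.88% and 14.7%; 4 rises with quantile normalization, with dim genes left out or with trend and robust settings; 3 falls without DMSO array 2 or 3 or simvastatin array 2 or 3, with the 6 arrays alone or adjusted over all probesets). In the WNT pathway 1 of 39 measured rose and 5 fell, 2.56% and 12.8%, with 3 to 5 falls when 1 array was left out. LGR5 (-0.85), a receptor of R-spondins that amplifies WNT signals, FRZB (-0.46) and SFRP1 (-0.39) fell. The TGF-β and BMP pathway was called both ways: 5 of 49 measured rose and 6 fell, 10.2% and 12.2%. With 1 array left out 2 to 5 rose and 4 to 5 fell. Among the falls were SMAD6 (-0.91) and BAMBI (-0.48), both inhibitors of BMP and TGF-β signals, and the ligand GDF11 (-0.63). In the Notch and Hedgehog pathways 2 of 39 measured rose and 7 fell (5.13% and 17.9%; 1 rise without DMSO array 1 or 3 or any 1 simvastatin array): JAG1 (-0.57), HEY1 (-0.58), MAML3 (-0.50) and PTCH1 (-0.29) fell, while the other Jagged ligand, JAG2 (0.42), rose. Of 158 G-protein coupled receptors 5 rose and 10 fell (3.16% and 6.33%; 2 rises without DMSO array 2, simvastatin array 1 or any 1 simvastatin plus mevalonate array or with the 6 arrays alone; 3 rises without DMSO array 3 or with the replicate block; 1 rise without simvastatin array 3 or adjusted over all probesets). NPY2R (-1.01), a receptor of neuropeptide Y, CXCR4 (-0.70), the receptor of the chemokine CXCL12, and ADGRB3 (-0.65) fell. S1PR2 (0.64), a receptor of sphingosine 1-phosphate that is not counted in that family, rose.

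Calls among axon guidance and neural adhesion genes were mostly falls. Of netrins, slits, LINGO proteins and their relatives 0 of 29 measured rose and 8 fell (0% and 27.6%; 2 higher at an unadjusted p under 0.05 in limma; 1 rise without DMSO array 1), with a median of -0.04; FLRT and LRRTM proteins are counted here. LINGO4, a leucine-rich-repeat membrane protein, read 8.46, 8.33 and 8.48 in the DMSO arrays and 7.14, 7.33 and 6.92 in the simvastatin arrays, a change of -1.29 ± 0.097 (adjusted p = 8.45e-05, limma), with no overlap. All measured slits fell: SLIT1 (-0.48), SLIT3 (-0.48) and SLIT2 (-0.35, not called without DMSO array 3 or with the 6 arrays alone). FLRT3 (-0.75), LINGO2 (-0.55) and NTNG1 (-0.49) fell as well. So did NRP1 (-0.48), a semaphorin co-receptor, and EFNB2 (-0.64), an ephrin. Of semaphorins and plexins 1 of 11 measured rose and 2 fell, 9.09% and 18.2%. Fits with 1 array left out gave 0 to 1 rises and 1 to 2 falls. Among ephrins and Eph receptors 0 of 21 measured rose and 1 fell, 0% and 4.76%, a lower share of falls than in all genes. There 2 were higher at an unadjusted p under 0.05 in limma. Among immunoglobulin-type adhesion proteins of neurons 2 of 31 measured rose and 7 fell (6.45% and 22.6%), median -0.07: NCAM2 (-0.60), CNTNAP5 (-0.56), CNTN1 (-0.42), CADM1 (-0.36) and NEGR1 (-0.34) fell. MCAM (0.76) and CADM3 (0.49) rose. MCAM read 5.71, 5.71 and 5.52 with DMSO and 6.65, 6.45 and 6.13 with simvastatin, the groups apart.

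Proteoglycans, proteins that carry sulphated sugar chains, were called downward but for 1: 1 of 26 measured rose and 6 fell (3.85% and 23.1%; 0 rises without DMSO array 2 or simvastatin array 1 or 3), the rise being that of CSPG4 (0.26, not called without DMSO array 2 or simvastatin array 1 or 3, with the 6 arrays alone or adjusted over all probesets). LUM, lumican, read 8.68, 8.73 and 8.80 in the DMSO arrays and 7.74, 7.58 and 7.46 in the simvastatin arrays, a change of -1.14 ± 0.071 (adjusted p = 3.19e-05, limma). DCN, decorin, read 5.69, 5.77 and 5.90 in the DMSO arrays and 4.86, 4.81 and 4.75 in the simvastatin arrays, a change of -0.98 ± 0.059 (adjusted p = 2.96e-05, limma). SDC2, the heparan sulphate carrier syndecan-2, read 10.20, 10.18 and 10.14 in the DMSO arrays and 9.34, 9.19 and 9.24 in the simvastatin arrays, a change of -0.92 ± 0.048 (adjusted p = 1.72e-05, limma). All 3 had their groups well apart. VCAN (-0.84), versican, and GPC3 (-0.47), glypican-3, fell too.

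Enzymes that build and sulphate the sugar chains went both ways: 6 of 53 measured rose and 9 fell (11.3% and 17%; 2 rises without DMSO array 2; 3 rises without simvastatin array 3 or any 1 simvastatin plus mevalonate array, with the 6 arrays alone, with the replicate block or adjusted over all probesets). HS3ST3A1, which adds a rare 3-O-sulphate to heparan, read 6.81, 6.80 and 6.80 in the DMSO arrays and 7.94, 7.98 and 7.68 in the simvastatin arrays, a rise of 1.06 ± 0.084 (adjusted p = 0.000108, limma), without overlap. EXT1 (0.62), a heparan polymerase, rose with it. HAS2 (-0.71), a hyaluronan synthase, PAPSS2 (-0.67), which makes the sulphate donor, SULF2 (-0.63), which removes sulphate from heparan outside the cell, DSE (-0.44) and CHST15 (-0.43) fell. Of other matrix glycoproteins 3 of 41 measured rose and 4 fell (7.32% and 9.76%), shares close to those of all genes. CCN3 (0.72) and NID1 (0.60) rose, and MFAP4 (-0.65), THBS1 (-0.51) and FN1 (-0.38), fibronectin, fell. TIMP3 (0.72, not called with probesets averaged), an inhibitor of matrix metalloproteinases, rose, and MMP16 (-0.49) and ADAM12 (-0.47) fell. Tetraspanins and TM4SF proteins were called both ways: 4 of 37 measured rose and 6 fell, 10.8% and 16.2%. Fits with 1 array left out gave 3 to 4 rises and 2 to 6 falls. The tetraspanin TSPAN2 rose by 0.93, reading 7.71, 7.63 and 7.68 with DMSO and 8.67, 8.60 and 8.54 with simvastatin, and CD151 (0.44) rose too. The fall of TM4SF4, given above, belongs to this family.

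Most called genes of the noradrenergic secretory programme fell, while VGF rose. DBH, which turns dopamine into noradrenaline, read 9.26, 9.29 and 9.26 in the DMSO arrays and 8.01, 8.11 and 8.06 in the simvastatin arrays, a change of -1.21 ± 0.041 (adjusted p = 4.77e-06, limma). TH (-0.25) and DDC (-0.26), the steps before it, fell by less. Of neuropeptides and granins 2 of 31 measured rose and 7 fell (6.45% and 22.6%; 1 rise without simvastatin array 2 or 3 or any 1 simvastatin plus mevalonate array), the rises being those of VGF and NTS (0.58, not called without any 1 simvastatin array or any 1 simvastatin plus mevalonate array, with the 6 arrays alone or adjusted over all probesets). CHGA, chromogranin A, read 10.02, 9.99 and 9.97 in the DMSO arrays and 9.28, 9.27 and 9.34 in the simvastatin arrays, a change of -0.70 ± 0.046 (adjusted p = 4.12e-05, limma). DBH and CHGA had no overlap between groups. CHGB (-0.41), VIP (-0.57), NMU (-0.49) and NPY (-0.34) fell as well.

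Proteins of the synaptic vesicle and of exocytosis changed in both directions: 13 of 79 measured rose and 9 fell (16.5% and 11.4%; 8 rises adjusted over all probesets). Downward changes were led by RPH3A, rabphilin, which read 6.57, 6.65 and 6.51 in the DMSO arrays and 5.18, 5.60 and 4.99 in the simvastatin arrays, a change of -1.32 ± 0.14 (adjusted p = 0.000493, limma). CADPS (-0.95), which primes dense-core granules for release, RIMBP2 (-0.40), SYN2 (-0.37), NSF (-0.37) and SYT1 (-0.26) also fell. SYT11 (0.67), SYNGR2 (0.60), SYT5 (0.52), SV2A (0.34) and SYN1 (0.33) rose, as did the syntaxins STX5 (0.49) of the Golgi and STX12 (0.46) of endosomes. The synapsins SYN1 and SYN2, which coat vesicles, changed in opposite directions. Of chloride and other channels 7 of 31 measured rose and 0 fell (22.6% and 0%; 2 lower at an unadjusted p under 0.05 in limma; 4 rises without DMSO array 2 or adjusted over all probesets; 1 fall without simvastatin array 1): BEST1 (0.86), a calcium-activated chloride channel, PIEZO1 (0.59), a mechanically gated channel, CLIC1 (0.56) and HCN3 (0.55). The GDNF co-receptors GFRA1 (-0.48) and GFRA2 (-0.46) fell.

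Lipid genes outside sterol and fatty acid synthesis were called in both directions. Of sphingolipid and glycolipid genes 4 of 25 measured rose and 1 fell (16% and 4%). SGPP2 (0.64) and SGPP1 (0.35), which dephosphorylate sphingosine 1-phosphate, KDSR (0.55), an early step of ceramide synthesis, and SGMS1 (0.43), a sphingomyelin synthase, rose, and CERK (-0.33), ceramide kinase, fell. KDSR read 7.27, 7.31 and 7.30 with DMSO and 7.92, 7.90 and 7.71 with simvastatin, without overlap. In phospholipid and triglyceride synthesis 7 of 55 measured rose and 5 fell, 12.7% and 9.09%. Fits with 1 array left out gave 4 to 8 rises and 3 to 4 falls. Enzymes that reacylate lysophospholipids did not share a direction: LPCAT4 (0.59) and LPCAT1 (0.33) rose, LPCAT2 (-0.91), MBOAT1 (-0.53) and LPCAT3 (-0.42) fell. LPCAT2 read 9.04, 9.10 and 8.99 with DMSO and 8.19, 8.14 and 8.07 with simvastatin, the groups far apart. DGAT2 (0.51), which makes triglyceride, ACSL4 (0.49) and ACSL1 (0.28), which activate fatty acids, and ACOT9 (0.51) rose. CPT1A (-0.40), which admits fatty acids into mitochondria, fell. In fatty acid oxidation and acyl-CoA handling 4 of 35 measured rose and 3 fell, 11.4% and 8.57%. Fits with 1 array left out gave 1 to 3 falls.

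In the secretory pathway, sensors and folding factors of the endoplasmic reticulum were called mostly upward: 9 of 30 measured rose and 2 fell (30% and 6.67%; 1 fall without any 1 DMSO array or simvastatin array 1 or 3; 4 falls with trend and robust settings), median 0.13. XBP1, a factor of the unfolded protein response, read 8.15, 8.08 and 8.22 in the DMSO arrays and 8.97, 9.06 and 8.96 in the simvastatin arrays, a rise of 0.85 ± 0.065 (adjusted p = 9.04e-05, limma). The 3 sensors of that response rose with it, ERN1 (0.44), EIF2AK3 (0.41) and ATF6 above, and so did ERO1B (0.66), HYOU1 (0.36, not called with probesets averaged) and SEL1L (0.33). ATF6B (-0.27) fell. EIF2AK3 and XBP1 also stand close to the ATF4 pathway, whose listed genes are not described here. Of coat and transport proteins 13 of 116 measured rose and 4 fell (11.2% and 3.45%; 2 falls without DMSO array 1, simvastatin array 1 or simvastatin plus mevalonate array 2 or 3 or with the replicate block; 1 fall without DMSO array 2 or 3, simvastatin array 3 or simvastatin plus mevalonate array 1, with quantile normalization, with the 6 arrays alone or adjusted over all probesets; 7 falls with dim genes left out or with trend and robust settings). The median level of these coat and transport genes, 7.80, lies among the 2977 genes ranked just below the 2977 brightest. Of those, 10.5% rose, so the family's share of rises is near that of genes at its level. Golgins, the tethers of the Golgi, led the rises: GOLGA2 (0.50), GOLGA5 (0.47), GOLGA3 (0.33) and GOLGA4 (0.29, not called without DMSO array 2). SAR1B (0.28), the GTPase of coat complex II, rose as well.

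Of splicing and RNA processing genes 2 of 124 measured rose and 17 fell (1.61% and 13.7%), median -0.05. The median level of this family, 8.66, lies in the range of the 2977 brightest genes, of which 17.5% fell, so its share of falls is not above that of genes at its level. HNRNPM read 10.72, 10.73 and 10.74 with DMSO and 10.23, 10.26 and 10.25 with simvastatin, a change of -0.49 ± 0.039 (adjusted p = 0.000109, limma), without overlap. RBM25 (-0.42), HNRNPK (-0.31), HNRNPA1 (-0.29), U2AF2 (-0.33), SRSF3 (-0.21) and SRSF1 (-0.20) fell by less, and EXOSC5 (0.47), of the RNA exosome, rose. Of acetylation enzymes and chromatin remodellers 3 of 67 measured rose and 12 fell (4.48% and 17.9%; 5 rises with dim genes left out or with trend and robust settings), also near the share of falls in the brightest genes: ARID1B (-0.38), CHD3 (-0.37), BRD7 (-0.35) and CHD7 (-0.32) fell, and HDAC5 (0.42) rose. Among enzymes and readers of histone and DNA methylation 8 of 86 measured rose and 14 fell (9.3% and 16.3%; 5 rises without DMSO array 1; 4 rises adjusted over all probesets; 8 falls adjusted over all probesets): PRDM8 (-0.51), TET2 (-0.35), CBX5 (-0.31) and EZH2 (-0.27) fell, and KDM6B (0.29) and KDM7A (0.33) rose.

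DNA replication genes, which act in S phase before mitosis, held 12 falls and 1 rise in 32 measured (3.12% and 37.5%; 0 rises without any 1 DMSO array, simvastatin array 1 or 2 or any 1 simvastatin plus mevalonate array; 19 falls with trend and robust settings; 7 falls adjusted over all probesets), with a median of -0.15. All falls were small, from -0.36 in MCM3 and -0.33 in MCM2, subunits of the replicative helicase, to -0.19 in MCM10. The 1 rise was that of CDT1 (0.20, not called without any 1 DMSO array, simvastatin array 1 or 2 or any 1 simvastatin plus mevalonate array, with probesets averaged, with the 6 arrays alone, with the replicate block or adjusted over all probesets). Of genes of the primary cilium and centriole 5 of 73 measured rose and 14 fell (6.85% and 19.2%; 9 falls without DMSO array 1 or 2 or simvastatin array 3 or with the 6 arrays alone; 8 falls without DMSO array 3; 6 falls adjusted over all probesets). BBS10 (-0.51), CC2D2A (-0.48) and CEP41 (-0.39) fell, and CEP290 (0.29), IFT57 (0.28) and BBS7 (0.26) rose. Of respiratory complexes II to IV 0 of 34 measured rose and 6 fell (0% and 17.6%; 1 higher at an unadjusted p under 0.05 in limma; 3 falls without DMSO array 2 or simvastatin array 3, with the 6 arrays alone or adjusted over all probesets), with COX20 (-0.62) and COX8A (-0.34) largest.

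The protein synthesis machinery split by part. Cytosolic ribosomal proteins were nearly all uncalled, 1 fall in 53 (0% and 1.89%; 3 higher at an unadjusted p under 0.05 in limma; 0 falls without DMSO array 1 or 2, any 1 simvastatin array or simvastatin plus mevalonate array 1 or 3), that of RPL26L1 (-0.17, not called without DMSO array 1 or 2, any 1 simvastatin array or simvastatin plus mevalonate array 1 or 3, with quantile normalization, with the 6 arrays alone, with the replicate block or adjusted over all probesets), with a median of 0.0091. Ribosome biogenesis factors were called upward: 10 of 62 measured rose and 0 fell (16.1% and 0%; 4 lower at an unadjusted p under 0.05 in limma; 5 rises without DMSO array 1 or 2 or simvastatin plus mevalonate array 1 or 3 or with the 6 arrays alone; 6 rises without DMSO array 3, simvastatin array 1 or simvastatin plus mevalonate array 2 or with the replicate block; 16 rises with trend and robust settings; 3 rises adjusted over all probesets). RRP12 (0.73), RPF2 (0.47) and DDX21 (0.42) were the largest of these rises. The median level of this family, 8.62, lies in the range of the 2977 brightest genes, of which 11.5% rose. Of translation factors 8 of 37 measured rose and 3 fell, 21.6% and 8.11%, with 4 to 8 rises and 1 to 4 falls when 1 array was left out. EIF4EBP1 (0.50), a repressor of cap-dependent translation, rose and its relative EIF4EBP2 (-0.30) fell.

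Ligands that natural killer cells recognise were among the changed immune genes. Of 14 ligands of natural killer cell receptors 3 rose and 1 fell (21.4% and 7.14%), and these 4 calls held without any 1 array. NCR3LG1, the ligand of NKp30, read 6.53, 6.62 and 6.63 in the DMSO arrays and 7.51, 7.49 and 7.41 in the simvastatin arrays, a rise of 0.87 ± 0.045 (adjusted p = 1.72e-05, limma). PVR, bound by DNAM-1 and TIGIT, read 7.61, 7.59 and 7.66 in the DMSO arrays and 8.29, 8.08 and 8.06 in the simvastatin arrays, a rise of 0.52 ± 0.071 (adjusted p = 0.00172, limma). As with ULBP1 the groups were apart. NECTIN3 (-0.29) fell. The other NKG2D ligands did not pass: MICA stood at 0.13, MICB at 0.06, ULBP2 at 0.06 and ULBP3 at 0.12. No interferon-response gene passed in limma (0 of 32; 5 higher and 1 lower at an unadjusted p under 0.05), the one farthest from 0 being IRF4 at 0.35, nor did any class I presentation gene (0 of 6; 0 higher and 0 lower at an unadjusted p under 0.05), the one farthest from 0 being TAPBP at -0.05. Of 89 chemokines, interleukins and receptors, CCL2 (-0.72) and IL7 (-0.56) fell and none rose (0% and 2.25%; 5 higher at an unadjusted p under 0.05 in limma; 1 rise without DMSO array 1 or 3 or simvastatin array 3).

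Cell death genes went both ways. PMAIP1, which encodes the BH3-only protein NOXA, rose by 0.74, reading 6.58, 6.66 and 6.70 with DMSO and 7.38, 7.40 and 7.36 with simvastatin, without overlap. APAF1 (-0.60), the core of the apoptosome, and BMF (-0.53), another BH3-only gene, fell. In the family 1 of 24 measured rose and 4 fell (4.17% and 16.7%; 2 rises without DMSO array 2 or simvastatin array 1). Of 20 measured p53 targets other than cell cycle inhibitors, 2 rose and 4 fell, 10% and 20%. With 1 array left out 1 to 3 rose and 3 to 5 fell. TP53I3 (-0.91) and TP53INP1 (-0.81) were among the falls.

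MicroRNA genes were measured by probesets at 1072 genes, of which 20 rose and 28 fell (4.48%, against 15.3% of coding genes); their median level of 4.54 lay under that of coding genes, 6.45. A value is that of the probeset at the gene and not of a mature strand. The miR-181 and miR-23 groups are described because several members and, for miR-181, the host transcripts moved; they were chosen after their values were seen. Mature sequences are from RefSeq (GRCh38.p14), which held them for 979 of the 1072 genes, with the seed, bases 2 to 8, in capitals.
hsa-miR-181a-5p: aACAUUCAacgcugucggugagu
hsa-miR-181b-5p: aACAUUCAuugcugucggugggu
hsa-miR-181c-5p: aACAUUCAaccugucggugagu
hsa-miR-181d-5p: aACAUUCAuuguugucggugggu
hsa-miR-23a-3p: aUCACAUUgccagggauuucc
hsa-miR-23b-3p: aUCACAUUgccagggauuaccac
hsa-miR-23c: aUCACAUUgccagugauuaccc
hsa-miR-27b-3p: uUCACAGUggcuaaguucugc
The 4 miR-181 sequences share 1 seed and the 3 miR-23 sequences another. The miR-27b seed differs from that of miR-23.

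MIR181A1 and MIR181B1 lie within the transcript MIR181A1HG on chromosome 1, and MIR181A2 and MIR181B2 within MIR181A2HG on chromosome 9. Both host transcripts fell. MIR181A1HG read 8.31, 8.34 and 8.37 in the DMSO arrays and 7.54, 7.51 and 7.61 in the simvastatin arrays, a change of -0.79 ± 0.05 (adjusted p = 3.42e-05, limma). MIR181A2HG read 7.35, 7.30 and 7.35 in the DMSO arrays and 6.39, 6.28 and 6.31 in the simvastatin arrays, a change of -1.01 ± 0.058 (adjusted p = 2.45e-05, limma). The groups did not overlap. Of the 4 microRNA genes within them, MIR181B1 (-1.05), MIR181B2 (-1.05) and MIR181A2 (-0.74) fell. MIR181A1, with a DMSO mean of 3.75, stood at -0.46 and did not pass (adjusted p = 0.0538, limma). MIR181C and MIR181D, which lie on chromosome 19, stood at 0.03 and 0.28 and did not pass either. The mature sequences of MIR181B1 and MIR181B2 are identical, so their probesets may share signal.

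MIR23B and MIR27B, neighbours within AOPEP on chromosome 9, rose. MIR23B read 8.99, 8.95 and 9.14 in the DMSO arrays and 9.64, 9.51 and 9.50 in the simvastatin arrays, a rise of 0.52 ± 0.062 (adjusted p = 0.000864, limma), and MIR27B (0.40) rose with it, both without overlap. MIR23C (0.55) on the X chromosome rose, and MIR23A and MIR27A on chromosome 19 stood at 0.33 and 0.16 and did not pass. Another host transcript of a neuronal microRNA, MIR137HG (-0.78), fell with MIR2682 (-0.77), which lies within it; MIR137, also within it, was unnamed here.

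**Figure D4:**
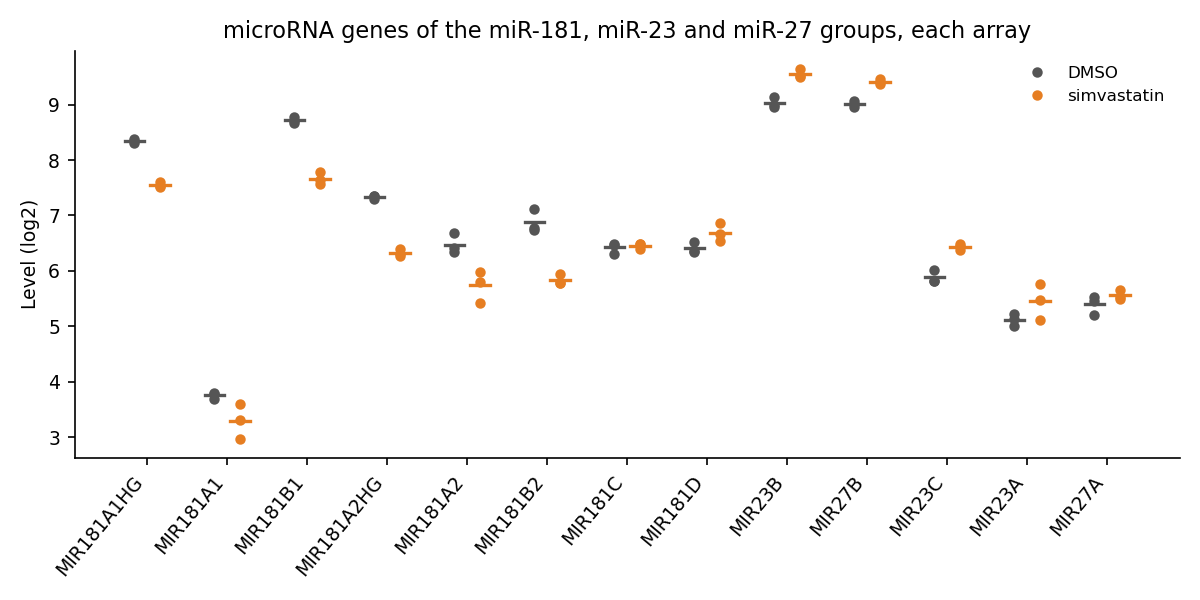
Points are log2 levels in each of the 3 DMSO arrays (grey) and 3 simvastatin arrays (orange) at microRNA genes and 2 host transcripts, and short lines are group means. The miR-181 genes on chromosomes 1 and 9 and their hosts are lower with simvastatin (MIR181A1 did not pass the test), those on chromosome 19 (MIR181C and MIR181D) are not, and MIR23B, MIR27B and MIR23C are higher.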

How the data were processed

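The 9 arrays of the series were whole-transcript Affymetrix arrays of total RNA. The values are the authors' deposited log2 expression values, 1 per probeset; GCRMA and HOMER are listed in the submitters' processing notes with neither version nor role, and no genome build is stated there. The values were used as deposited. A platform annotation table named 16098 of 53617 probesets with 1 gene symbol (the rest are unnamed here), and 14884 genes were kept, each through its probeset with the highest mean over the 9 arrays. A model with 3 group means was fitted over all 9 arrays with limma 3.58.1 (lmFit and eBayes) in R 4.3.3, and p-values were adjusted by Benjamini-Hochberg over the 14884 genes, with a threshold of 0.05. The procedure was tested on simulated data. The number of arrays, 3 a group, limits the precision.

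Families were built from symbol patterns. Named genes were drawn from the 25 largest rises and 25 largest falls outside the sterol, ATF4 and mitosis lists, with groups that do not overlap (microRNA, small RNA, LINC, LOC and similar symbols were not ranked, and all those ranked code for proteins); up to 4 called members of each family with the largest changes; the largest change in a family with none called; and the Ras-like GTPases, G protein gamma subunits and prenylation genes. Other named genes are further members of those families, microRNA genes or markers and were picked after their values were seen. The families, lists and comparisons were chosen with earlier results of these data known. Some genes are not reported here.

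Alternatives were quantile normalization, the mean over a gene's probesets, a filter on genes under the array median, the 6 compared arrays alone, eBayes with trend and robust settings, the replicate number as a block, adjustment over all probesets, and each array left out in turn; promoter motifs were also counted without the listed genes, an alternative added after seeing the data.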

Additional observations from a re-analysis of the deposited data

How the results depend on the processing

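The counts of 1988 changed, 890 risen and 1098 fallen genes stayed within 1.5 times of these values under 6 of the 7 alternatives other than leaving out an array. Adjustment over all probesets gave 1177 changed genes, 506 risen and 671 fallen. The replicate block gave 1576, 699 and 877. Same-numbered DMSO and simvastatin arrays deviated from their group means with correlations of -0.026, -0.024 and -0.055. These small values show no pairing by number, but with 3 arrays a group they cannot exclude one. Leaving out 1 array gave 1461 to 1744 changed, 648 to 783 risen and 775 to 993 fallen genes, and 1189 of the 1988 were called in all 9 of these fits. Quantile normalization moved the share of rises among the calls from 44.77% to 51.15%. Some counts under 4 in the families described also moved by 1 to 3 members under these alternatives. No called gene changed direction while called. EME1, a repair gene that fell by 0.35, stood at 0.048 when probesets were averaged, and the cause was not tested.

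Calls were scarce among dim genes, with 109 of 4720 genes under the array median changed, and their precision limits what can be called there.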
